A study of Mus musculus with 18 samples.

Results

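In 96 h-stimulated B cells, 5789 sites carried a RAD21 peak in the pooled list of this time point only and had little backing from the single replicates. RAD21 is the kleisin subunit of cohesin, and its binding to chromatin was mapped by ChIP-seq in purified splenic B cells of C57BL/6 mice (C57BL/6J in the study's methods) aged 8 to 10 weeks, with the cells of 12 mice in each replicate. The cells were resting (0 h) or had received 50 µg/ml LPS and 2 ng/ml IL-4 for 48 h or 96 h in culture, a stimulus for the class switch to IgG1, and each time point had 3 replicates and 1 pooled sample made by merging them. The 96 h cells were in addition enriched for IgG1-positive cells by negative selection, so the time of stimulation and this purification cannot be told apart. The pooled lists held 5690 peaks at 0 h, 5579 at 48 h and 12806 at 96 h. Merging all peaks of the 3 pooled lists that shared 1 bp or more gave 15705 sites, of which 6990 had a peak in the 96 h list only. The class of 96 h only sites depends on these lengths. With pooled lists of equal length, 48 sites with no replicate peak and 630 with 1 were left. From these, the sites overlapped by a peak of 0 or 1 of the 3 96 h replicates were taken, which are 36.9% of all merged sites. A total of 2920 had no replicate peak and 2869 had a peak in 1 replicate, and the other 1201 sites, with 2 or 3 replicates, serve as the comparison. The sites were chosen by the measured peaks of the pooled and replicate lists, so the scores, widths and replicate peaks below describe the choice and are given without a test. The peak lists hold no read counts, so the depth behind a site is unknown. Peaks under the caller's threshold are not listed, so sites without a replicate peak may still have bound cohesin in that replicate.

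Cohesin is a ring-shaped complex that holds DNA strands together and extrudes chromatin loops. In mammalian cells it is halted at many places by CTCF, a zinc finger protein that reads a long motif with a direction, and loops form most often between motifs that point towards each other. In B cells such loops shape the immunoglobulin loci and the contacts between promoters and enhancers.

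The motif in these sites is best seen in the sequences themselves. A matrix of 20 bases was built on 410 sites called in 6 or more of the 9 replicates, none of which was one of the 5789, and its consensus resembled the known CTCF motif in the direction with the run of G. The stretches below, on mm9, are written 5′ to 3′ along the strand of the match, with the 20 matched bases in capitals. They show, for each group, the matches at the 5 sites of highest score and the 2 of lowest score, followed by sequences that recurred among the sites. The site at Syn3, the highest score with 1 replicate, held no match and is left out.
Consensus: GCCACCAGGGGGCGCCAGAG
Near Vmn1r40, no replicate, highest score, chr6:89630363-89630392, plus strand: cttgcTCCAGCAGGTGGCGACAAAGcaccg
In Arhgef2, no replicate, among the 5 highest scores, chr3:88436295-88436324, minus strand: gtgtgACCTCAGGGGGGCAGCAGAGcccgt
Near Tmem121, no replicate, among the 5 highest scores, chr12:114458258-114458287, plus strand: atctaGCCACCAGGGGGCACATGAGctctg
Near Ppara, no replicate, among the 5 highest scores, chr15:85540832-85540861, minus strand: ctgctGCCACACGGTGTCGCTGCTGggaag
Near Ktn1, no replicate, among the 5 highest scores, chr14:48371272-48371301, plus strand: gttccGTCACTAGGGGGAGGTAACAgacag
Near Bms1, no replicate, lowest score, chr6:118369833-118369862, minus strand: gtcctGGCACAAGAGGGCAGCAGAGcgctg
In Tgfb1i1, no replicate, lowest score, chr7:135391141-135391170, plus strand: gatccAGCAGCAGAGGGCGCTCGTCaataa
Near Aqp9, 1 replicate, among the 5 highest scores, chr9:70921885-70921914, minus strand: atgctACCACCAGGTGGTGACAGAGtgctg
Near Zc3h12c, 1 replicate, among the 5 highest scores, chr9:52106568-52106597, plus strand: taaaaAGCACTAGATGGCAGCAGAGgttct
In Hs1bp3, 1 replicate, among the 5 highest scores, chr12:8327063-8327092, plus strand: gttagGCCAGCAGGGGGTGCTCATCcctca
Near 1810062G17Rik, 1 replicate, among the 5 highest scores, chr3:36395892-36395921, minus strand: atgaaGCCGCTTGGGGGCGGCATCTcgccg
In Mctp1, 1 replicate, lowest score, chr13:76899492-76899521, plus strand: gaatgACCAGCAGGTGGCAGGTTTGcctca
Near Abhd16b, 1 replicate, lowest score, chr2:181218558-181218587, minus strand: caggtTCCAGTAGGGGCAGCAGTAGgtcaa
In Pax5, no replicate, with the recurring word, chr4:44648666-44648695, minus strand: cagagGCCAGAAGAGGGCATCATAGtccct
In Rb1, no replicate, with the recurring word, chr14:73666162-73666191, minus strand: cagagGCCAGAAGAGGGCATTGGAAcccct
Near Prkcb, 1 replicate, with the recurring word, chr7:129426276-129426305, plus strand: cagagTCCAGAAGAGGGCATCAGATcctct
Near 9830147E19Rik, stretch found at 10 sites, chr7:49915700-49915729, minus strand: gtgccGCCACTAGATGGTGCTAAACctctt
Near Mup18, stretch found at 5 sites, chr4:61379724-61379753, plus strand: gcttgGCCAGTAGAGGGCAACCGTGccttt
Of the 20 bases, the match near Tmem121 differed from the consensus at 3, that near Aqp9 at 4, those near Vmn1r40 and Bms1 at 5 and that in Arhgef2 at 6. Those near Zc3h12c and 1810062G17Rik and in Hs1bp3 differed at 7, those near Ppara, Ktn1 and Abhd16b and in Tgfb1i1 at 8 and that in Mctp1 at 9.

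The sites without a replicate peak had the lowest scores. The score is the value that the authors' peak caller gave each peak, and it ranks peaks within 1 list. In the 96 h pooled list, the median score was 9.64 at sites with no replicate peak (lowest 4.12, highest 24.23), 13.59 at sites with 1 (4.16 to 38.26) and 24.52 at sites with 2 or 3 (5.93 to 79.12). The 5816 peaks of the list that overlapped a 0 h or 48 h pooled peak had a median of 24.23. Ranked from 0 for the lowest to 100 for the highest score of the list, the median site stood at 18.4 with no replicate, at 40.7 with 1 and at 72.1 with 2 or 3. Below the list's median score of 16.14 lay 95.9% of the sites with no replicate, 67.3% of those with 1 and 9.58% of those with 2 or 3. In the plot of scores the curves of the 3 groups follow the number of replicates, with overlapping tails. Just inside the limit of 1 replicate, the highest scores were 38.26 near the start of Syn3, 36.47 near Aqp9 and 35.42 near Zc3h12c, while just outside it, sites with 2 replicates had scores as low as 5.93 near Cnksr3, 6.02 near Gm17467 and 7.54 near D19Wsu162e. The score alone did not separate the groups.

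**Figure D1:**
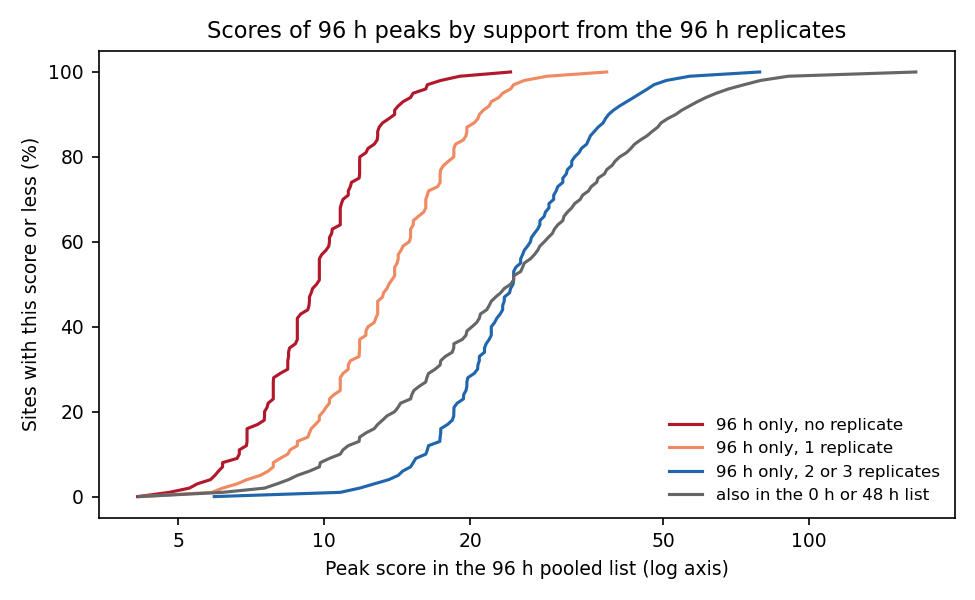
Share of sites (%, vertical axis) with at most the given score in the 96 h pooled list (horizontal log axis), for 96 h only sites with a peak in no, 1, or 2 or 3 replicates and for 96 h peaks also found at 0 h or 48 h. The medians are 9.64, 13.59, 24.52 and 24.23.

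The peaks were also narrow. The median width was 165 bp with no replicate (140 to 477 bp), 200 bp with 1 (140 to 1226 bp) and 246 bp with 2 or 3 (156 to 476 bp). The least width in the whole list, 140 bp, was held by 482 sites with no replicate (16.5%) and by 71 with 1 (2.47%), and by 0 of the sites with 2 or 3. Scores came in steps, so that many sites shared 1 value. The 10 commonest scores of the list held 33.4% of the sites with no replicate, 27.6% of those with 1 and 4.58% of those with 2 or 3, beside 18.2% of the whole list. A score of 10.79 was given to 299 peaks, of which 248 were among the 5789 sites, and 9.77 to 307, of which 242 were.

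Support came mostly from 1 library. Of the 2869 sites with 1 replicate, 2403 (83.8%) had their peak in replicate 3, 330 in replicate 2 and 136 in replicate 1. The lists of these replicates held 8579, 4552 and 2807 peaks, so the order of support followed the length of the lists, and 28.0% of the peaks of replicate 3 fell on such sites, against 7.25% and 4.85% for replicates 2 and 1. Without replicate 3, 5323 sites had no replicate peak and 1371 had 1. The supporting peaks were weak in their own list as well. In replicate 3 their median score was 9.76, where the list's median was 12.52, in replicate 2 it was 9.33 beside 11.96, and in replicate 1 it was 8.17 beside 10.19. At sites with 2 or 3 replicates the peaks of these lists had medians of 12.52, 10.63 and 9.17. The overlap was not marginal, since a supporting peak shared a median of 168 bp and at least 59 bp with the pooled peak. Sites with no replicate rarely missed one by a little. A 96 h replicate peak ended within 100 bp of 2 of the 2920 sites, within 500 bp of 34 and within 1000 bp of 65 (2.23%).

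Despite the low scores, nearly all sites held the motif. On the 12 chromosomes not used to learn it, a match within 100 bp of the centre was found at 1461 of 1616 sites with no replicate (90.4%, exact binomial 95% interval 88.9% to 91.8%) and at 1514 of 1600 sites with 1 (94.6%, 93.4% to 95.7%). Among sites with 2 or 3 replicates the share was 95.2% (93.3% to 96.6%) and among 96 h peaks also found at another time point it was 88.8% (87.7% to 89.9%). Windows 1000 bp from the sites held a match in 5.46% of cases (4.91% to 6.04%). The share with no replicate minus that with 1 was -4.22 percentage points (Newcombe 95% interval -6.05 to -2.41), and the share with 1 differed from that with 2 or 3 by -0.53 points (-2.36 to 1.60). All these intervals cover counting error only, and sites are not replicates of a condition.

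The best matches within 100 bp of the centre scored much alike in the 3 groups. The median best score of the matrix was 17.6 log2 odds with no replicate and with 1, and 17.8 with 2 or 3, where a match needed 9.85 and the windows 1000 bp away had a median of 0.94. At the stricter level of 16.7, which 1.11% of those windows passed, the shares were 58.6%, 59.6% and 61.5%. Within the group with no replicate the share rose with the peak score, from 88.0% (85.6% to 90.1%) in the lowest of 5 score ranges of about equal size in the 96 h list to 92.8% (90.5% to 94.8%) in the next and 93.6% (88.6% to 96.9%) in the third. In that lowest range, where scores ran from 4.12 to 9.75, sites with 1 replicate had the motif in 91.3% of cases (87.4% to 94.3%), and the intervals of both groups overlapped. Over all score ranges, a match within 50 bp of the centre was found at 76.2% of sites with no replicate and 85.5% with 1.

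**Figure D2:**
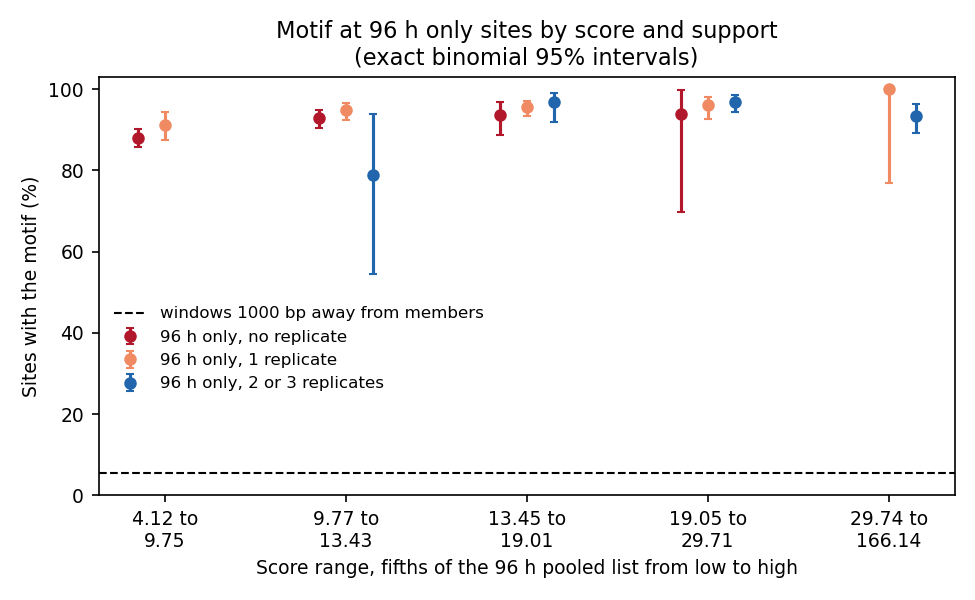
Share of sites with the motif (%, vertical axis) on the held-out chromosomes by score range of the 96 h list (horizontal axis) and number of supporting replicates, with exact binomial 95% intervals and points of under 10 sites left out. Every plotted share lies above 75%, and the dashed line marks 5.46% in windows 1000 bp away.

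The match lay near the middle of the peak. Among sites with a match, its middle was within 50 bp of the peak's centre in 92.0% of those with no replicate, 95.1% of those with 1 and 96.6% of those with 2 or 3, and the median distances were 20, 18 and 17 bp. The match was on the plus strand in 48.9%, 48.4% and 52.7% of cases. Sites with no replicate that lacked a match numbered 267 over all chromosomes, and their median score was 8.8 beside 9.77 for the 2653 with a match. They held a tandem repeat, a run of 20 or more bases whose unit had 4 or fewer, in 9.36% of cases (6.15% to 13.5%), against 3.02% (2.40% to 3.74%) of those with a match. Among the sites with 1 replicate these shares were 3.51% (1.30% to 7.48%) and 3.11% (2.49% to 3.84%). Over each whole group, 3.60%, 3.14% and 1.42% of the sites held such a repeat with no, 1 and 2 or 3 replicates, fewer than the 6.49% of the windows 1000 bp away.

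**Figure D3:**
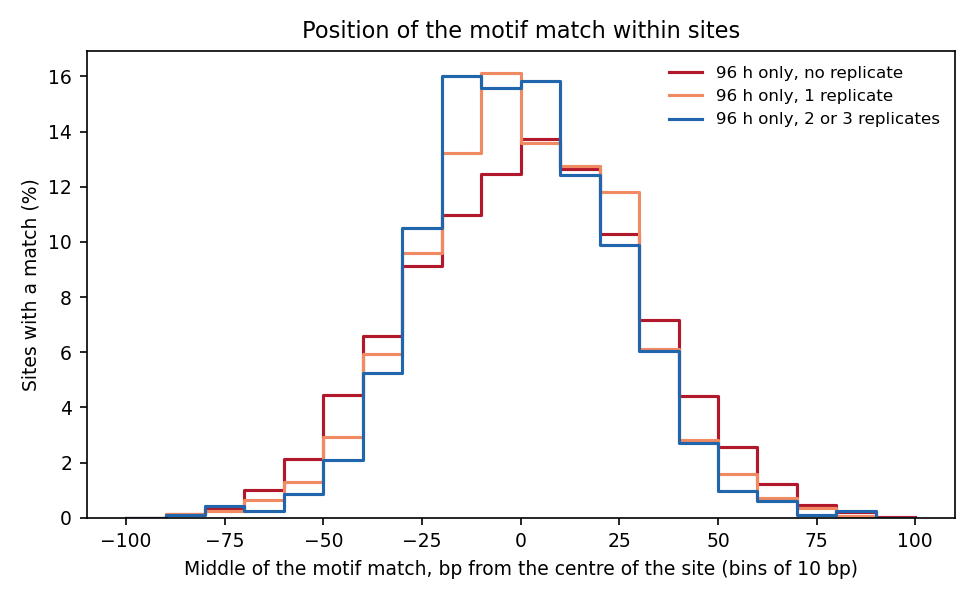
Position of the middle of the motif match relative to the centre of the site (bp, horizontal axis, bins of 10 bp) as a share of the sites with a match (%, vertical axis), by number of supporting replicates. The curves peak near 0, and the one for sites with no replicate is the broadest.

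Many matches shared 1 version of the motif. The commonest run of 12 bases within 5 bases of the matches was CCAGAAGAGGGC, chosen after the sequences had been seen, and it was searched on both strands within 100 bp of every centre. It was present at 231 sites with no replicate (7.91%, 6.96% to 8.95%), 167 with 1 (5.82%, 4.99% to 6.74%) and 36 with 2 or 3 (3.00%, 2.11% to 4.13%), as well as in 0.872% of windows 1000 bp away. Of the 96 h peaks also found at another time point, 4.01% (3.52% to 4.54%) held it. The difference between no replicate and 2 or 3 was 4.91 points (3.46 to 6.24), and that between no replicate and 1 was 2.09 points (0.79 to 3.40). The word was picked from these same data, so the differences are a description and their intervals do not allow for the choice. With no and with 1 replicate, the share fell as the peak score rose. With no replicate it was 9.52% in the lowest score range, 6.98% in the second and 3.99% in the third, and with 1 replicate 7.68%, 6.40% and 5.28%. Within each score range the intervals of these 2 groups overlapped, as in the lowest, where they were 8.07% to 11.1% and 5.49% to 10.4%. With 2 or 3 replicates the word was present at 0 of 9 sites in the lowest range (0% to 33.6%). It was at 0 of 38 in the second (0% to 9.25%) and at 8 of 364 in the fifth (2.20%). Sites with 2 or 3 replicates held it in 4.09% of cases (1.89% to 7.62%) in the third range and 3.33% (2.02% to 5.16%) in the fourth, beside 3.99% (2.08% to 6.86%) and 3.13% (0.0791% to 16.2%) with no replicate, and in both ranges the intervals of these 2 groups overlapped. The sites in Pax5 and Rb1 with no replicate and the site near Prkcb with 1, printed above, belonged to this set. B2 elements, short interspersed repeats of rodents, are known to carry a CTCF motif. Whether these sites lay in such an element was not tested, since no repeat annotation was used.

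Some sites shared the same stretch around the match. The 30 bases around the match were identical to those of another of the 5789 sites at 57 sites with no replicate (2.15%, 1.63% to 2.77%) and 48 with 1 (1.78%, 1.31% to 2.35%). The most frequent stretch, printed above for the copy near 9830147E19Rik, was found at 10 sites on 8 chromosomes, 3 with no replicate and 7 with 1, with scores from 7.74 to 18.51, and at 2 further 96 h only sites with 2 or 3 replicates. The stretch near Mup18 was found at 5 sites, all on chromosome 4 and all with 1 replicate, with scores from 7.29 to 20.89. A further 96 h only site, with 2 or 3 replicates, held this stretch too. Mup18 is 1 of the major urinary protein genes, a cluster of near-identical copies. Reads from such copies can be placed at more than 1 position, so the values at sites with a shared stretch may be uncertain. Identity beyond the 30 bases and the placement of reads were not examined.

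The groups were compared by their position in relation to genes. The intervals of the differences cover counting error only and were not adjusted for the number of features and pairs of groups. For most features and pairs this interval included 0. A centre within 1 kb upstream of the start of a protein-coding transcript was found for 4.45% of the sites with no replicate (3.73% to 5.26%), 4.11% with 1 (3.42% to 4.91%) and 4.41% with 2 or 3 (3.32% to 5.73%), where such windows made up 1.23% of the sequenced genome. Within 3 kb upstream these shares were 8.12%, 8.82% and 9.16%, beside 3.43% of the genome, and within 3 kb downstream of a gene's end 9.42%, 9.72% and 11.6%, beside 3.58%. The 96 h peaks also found at another time point had higher upstream shares, 5.86% (5.27% to 6.50%) within 1 kb and 11.6% (10.8% to 12.4%) within 3 kb. Their downstream share was 9.28%. Downstream, the share with no replicate minus that with 2 or 3 was -2.16 points (-4.34 to -0.13). A site could count under more than 1 feature. 5′ untranslated exons held 31 sites with no replicate (1.06%, 0.722% to 1.50%) and 17 with 1 (0.593%, 0.346% to 0.947%), a difference of 0.469 points whose interval ran from -0.00353 to 0.963. Introns held 40.7% of the sites with no replicate and 37.3% with 1, a difference of 3.36 points (0.843 to 5.86), and 35.6% of the genome was intronic. The difference between no replicate and 2 or 3 was 3.35 points in introns (0.061 to 6.58). Coding exons held 2.16% and 2.58%, against 1.50% with 2 or 3 replicates, and the share with 1 exceeded the last by 1.08 points (0.0775 to 1.93). Intergenic sites made up 44.5%, 46.0% and 46.0% of the groups but 57.9% of the genome. The median distance to the nearest transcription start was 19900 bp with no replicate, 20242 bp with 1 and 18684 bp with 2 or 3.

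**Figure D4:**
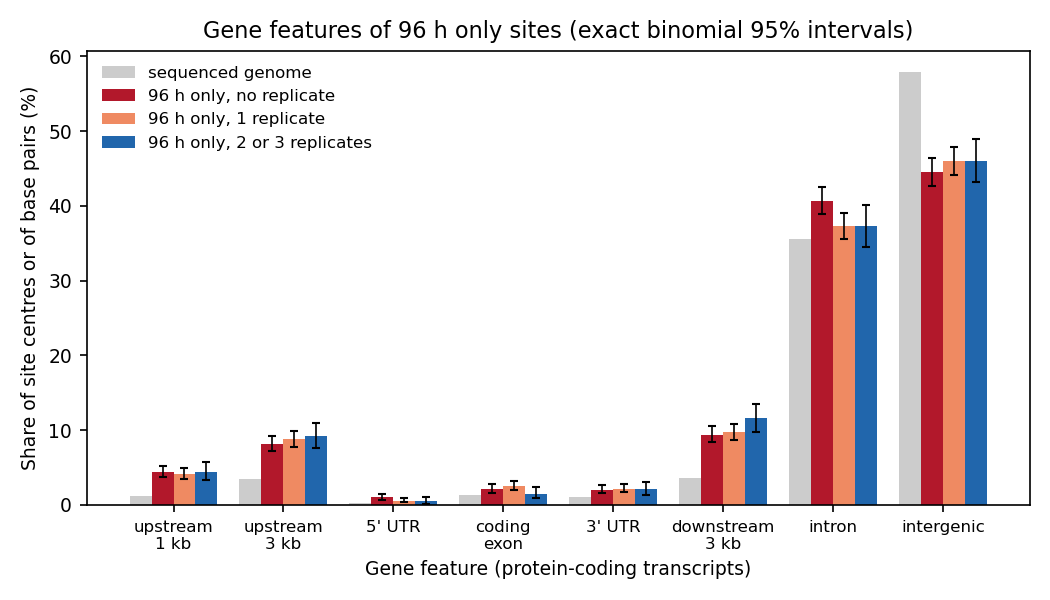
Share (%, vertical axis) of the centres of 96 h only sites in each gene feature (horizontal axis), by number of supporting replicates, with exact binomial 95% intervals, beside the share of sequenced base pairs in grey. Within 1 kb upstream of a start the 3 groups of sites stand at 4.45%, 4.11% and 4.41%, against 1.23% of the genome.

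The sequence and the position of the sites were compared across the 96 h replicates. In each replicate, its peaks at sites where it was the lone support were set against its peaks at 96 h only sites with 2 or 3 replicates. The motif was compared on the chromosomes not used to learn it, with 79, 184 and 1337 lone peaks in replicates 1, 2 and 3. It was found in 89.9%, 96.2% and 94.7% of these, and in 93.2%, 95.5% and 95.2% of the 278, 572 and 664 others. The mean difference was -1.01 percentage points ± 2.07 (SD, n = 3), with a lower share in 2 of 3 replicates (exact paired permutation test, two-sided p = 0.75, adjusted over 2 tests p = 1). A centre within 3 kb upstream of a start was found for 10.3%, 8.79% and 8.74% of the lone peaks and 7.41%, 9.02% and 9.27% of the others, a mean difference of 0.706 points ± 1.89 (SD, n = 3; exact paired permutation p = 1, adjusted p = 1). With 3 pairs this exact test cannot go below p = 0.25, and neither difference was larger than the spread between replicates. The 3 pairs are not independent, since the better supported sites are by definition shared: 962 of the 1201 had a peak in both replicates 2 and 3. Without replicate 1 both turned sign, to 0.125 and -0.381 points.

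The sites were spread among other cohesin sites. The nearest other peak of the 96 h list lay at a median of 38082 bp from sites with no replicate, 37630 bp from those with 1 and 33938 bp from those with 2 or 3, and in 42.9%, 41.2% and 40.5% of cases this neighbour was also in the 0 h or 48 h list. Where both peaks held the motif and were at most 100 kb apart, the directions of both motifs were compared, and a pair can enter from either side. Of 1922 pairs at sites with no replicate, 50.8% pointed the same way, 36.0% pointed away from each other and 13.2% (11.7% to 14.8%) towards each other. With 1 replicate there were 1962 pairs, at 51.6%, 34.1% and 14.3% (12.8% to 15.9%), and with 2 or 3 there were 857, at 48.8%, 41.3% and 9.92% (8.0% to 12.1%). Pairs that pointed towards each other were rarer at short range. With no replicate they were 7.62% (5.47% to 10.3%) of pairs up to 10 kb apart, 13.0% (10.9% to 15.4%) from 10 to 50 kb and 19.4% (16.0% to 23.2%) from 50 to 100 kb. With 1 replicate the same steps gave 6.18%, 14.3% and 22.6%.

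Few sites had a peak in a replicate of another time point. The rule already asked for absence from the 0 h and 48 h pooled lists, so these counts are a description. At least 1 of the 6 replicates of 0 h and 48 h had a peak at 81 sites with no 96 h replicate (2.77%, 2.21% to 3.44%), at 118 with 1 (4.11%, 3.42% to 4.91%) and at 98 with 2 or 3 (8.16%, 6.67% to 9.85%). Of the 5789 sites, 4, 1 and 80 had a peak in replicates 1, 2 and 3 of resting B cells, and 47, 23 and 46 in those of 48 h-stimulated B cells. Replicate 2 of the 48 h cells stood apart. Its list was the longest of the 6, with 5254 peaks, and of its 23 sites 8 held the motif (34.8%, 16.4% to 57.3%) and 10 a tandem repeat (43.5%, 23.2% to 65.5%). The 177 sites with a peak in another of these replicates held the motif in 94.9% of cases (90.6% to 97.6%) and a tandem repeat in 2.26% (0.62% to 5.68%).

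The X chromosome had few of these sites in number, but they made up most of its peaks. It held 144 sites, 82 with no replicate and 62 with 1, which is 0.888 per Mb of sequence, where the autosomes ranged from 1.86 to 3.62 per Mb. Of the 231 peaks of the 96 h list on X, these 144 were 62.3% (55.7% to 68.6%), against 42.5% to 47.6% on single autosomes and 44.9% (44.0% to 45.8%) over all of them. Peaks with 2 or 3 replicates were 17.7% of the list on X (13.0% to 23.3%) and 36.2% on the autosomes (35.3% to 37.0%). All 96 h peaks on X had a median score of 12.19 beside 16.2 on the autosomes, while the sites themselves had medians of 10.79 and 11.01. The motif was present at 93.8% of the sites on X (88.5% to 97.1%) and 92.5% of those on held-out autosomes. The part of the lower scores in the larger share on X was not tested.

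**Figure D5:**
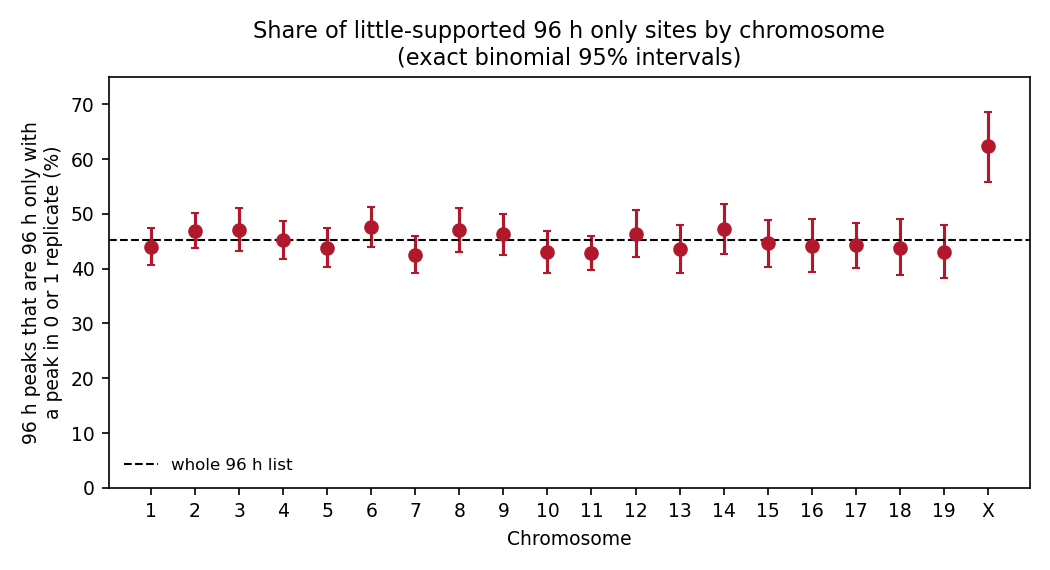
Share of the peaks of the 96 h pooled list (%, vertical axis) that were 96 h only sites with a peak in 0 or 1 replicate, by chromosome (horizontal axis), with exact binomial 95% intervals. X stands at 62.3%, the autosomes lie between 42.5% and 47.6%, and the dashed line is the whole list at 45.2%.

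Of 22367 protein-coding genes, 4193 (18.7%) had at least 1 of the sites in the gene or within 10 kb of it. A site with no replicate was found at 2303 genes (10.3%) and a site with 1 replicate at 2276 (10.2%). There was 1 site at 3491 of the genes, 2 at 589, 3 at 96, 4 at 14 and 5 or more at 3. The genes with the most sites were long. Gm20388, a read-through gene model of 4454882 bp with its 10 kb margins on chromosome 8, had 25. Atxn1, the gene of the polyglutamine protein ataxin-1, and Fgfr2, a fibroblast growth factor receptor, had 7 each. With margins, the annotated model of Atxn1 covered 430084 bp and that of Fgfr2 3029069 bp, so sites counted at Fgfr2 may lie far from its start. Genes of unlike length could have the same count, such as 4 sites at Map2k6 in 146401 bp and at Dlg2 in 1965041 bp, with margins. How far length accounts for the counts was not tested. A longer window has more room for sites, so the lists below are given also per Mb of gene and margin. For all protein-coding genes this density was 3.45 per Mb.

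Among 14 transcription factors of B cell identity, 5 had a site, with 9 sites in all or 5.15 per Mb, 7 of them without a replicate. In Pax5, the factor that maintains B cell identity, an intronic site at chr4:44577534-44577760 scored 16.2 in the pooled list and 14.43 in replicate 3, with no peak in replicates 1 and 2, and the other intronic site scored 10.85 with no peak in any replicate. A coding exon of Spi1, which encodes PU.1 and is named Sfpi1 in the annotation, held a site of score 15.71, with a peak of 6.95 in replicate 3 only. Bcl6, a transcriptional repressor needed for the germinal centre programme, had sites of 12.89 within 3 kb downstream of its end and 12.84 in an intron, 4902 bp apart and both without a replicate. Bach2, a repressor of plasma cell differentiation, had 3 intronic sites without a replicate, with scores of 9.77, 7.85 and 5.7. Ikzf3, the gene of Aiolos, had 1 of 6.91 in an intron. The motif was present at all of these but the weakest site in Bach2.

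Of 12 genes of plasma cell differentiation and secretion, 5 had a site, with 6 sites or 3.76 per Mb. The highest scores were 14.21 for a site without the motif in an intron of Xbp1, 245 bp from a transcription start of this regulator of the secretory programme, and 14.21 for an intronic site in Zbtb20, a zinc finger factor of plasma cells. Prdm1, the gene of Blimp-1, had an intronic site of 11.78 whose match of 10.0 log2 odds was barely above the limit. None of these sites had a peak in a 96 h replicate. The others were a further site in Zbtb20 (9.32), and sites in Creb3l2 (6.91) and Atf6 (7.66), of which that in Atf6 had a peak of 5.86 in replicate 3.

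Of 16 genes of class switching and DNA break repair, 4 had a site, at 3.55 per Mb. Xrcc5, which encodes the Ku80 end-joining protein, had an intronic site at chr1:72360326-72360574 with a score of 23.34 in the pooled list and 10.19 in replicate 3. Xrcc6, the gene of its partner Ku70, had sites of 11.8 in an intron and 8.41 beyond its end, both without a replicate. A site of 12.89 within 10 kb of Dclre1c, the gene of the nuclease Artemis, lay in an intron of Meig1, with a peak of 9.11 in replicate 3. Prkdc, the catalytic subunit of the DNA-dependent protein kinase, had 1 of 7.66 without a replicate.

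The B cell receptor and its coreceptors had sites at 6 of 15 genes, 9 sites or 6.67 per Mb, and 6 of them had a replicate. The highest score near Cr2, 21.48 with 14.96 in replicate 3, belonged to a site in a coding exon of the adjacent Cr1l, without the motif and with a further peak in replicate 3 of the 48 h cells. Syk, named Sykb in the annotation, encodes the kinase that binds the receptor's tails and had a site of 18.5 within 3 kb downstream, with 11.37 in replicate 3. Cd22, an inhibitory coreceptor, had a site in a coding exon with a score of 12.35 and peaks in replicate 3 of the 96 h cells (8) and replicate 3 of the resting cells. Lyn, a kinase of the same pathway, had an intronic site of 10.79, with 8.84 in replicate 3.

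Of 18 genes of the LPS receptor and NF-κB, 5 had a site, 6 in all or 6.53 per Mb. Nfkb1, which encodes p105 and p50, had a site of 15.45 downstream of its end with a peak of 10.19 in replicate 3 and another in replicate 1 of the resting cells. Traf6, an adaptor of Toll-like receptor signalling, had 1 of 11.83 nearby, with 10.39 in replicate 3. Sites without a replicate scored 10.17 in a coding exon of Nfkb2 and 9.4 in an intron of Irak4. In this list the site near Ticam1 (9.32) was the only one backed by replicate 1, with 5.77. None of the 10 genes of IL-4 receptor signalling, 0.478 Mb with margins, had a site.

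Among 15 genes of cohesin, its loader and CTCF there was 1 site or 0.583 per Mb, of 14.8 without a replicate, within 10 kb of Pds5b, a regulator of cohesin's hold on DNA, and 244 bp from a start of the adjacent N4bp2l2. Of 22 genes of the cell cycle and DNA replication, 5 had a site, with 6 sites or 5.45 per Mb. Cdk6, a kinase of the G1 phase, had 1 in a coding exon of 23.51 in the pooled list and 14.96 in replicate 3. The other 5 sites had no replicate, with scores of 11.83 near Pcna, the sliding clamp of replication, 10.79 in Rb1, the retinoblastoma gene, 10.47 near Aurkb, a mitotic kinase, 7.41 in an intron of Cdk6 and 6.91 near Mcm2, a subunit of the replicative helicase. Of 14 homing genes, 2 had a site, Itgal (8.44) and Cxcr4 (5.47), or 3.08 per Mb. Of 12 genes of other blood lineages, 2 had a site, Tcf7 (16.32) and Gata3 (8.44), or 3.55 per Mb, and none of these 4 sites had a replicate. Gene expression was not measured here.

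The 5 highest scores with no replicate ran from 21.89 to 24.23, all with the motif. They lay 33836 bp from the start of Vmn1r40, a pheromone receptor gene, in an intron of Arhgef2, 34199 bp from Tmem121, 25171 bp from Ppara, a receptor of lipid metabolism, and 87870 bp from Ktn1. The sites near Tmem121 and Ppara had another 96 h peak at 607 and 900 bp. The 5 highest with 1 replicate ran from 33.74 to 38.26, all backed by replicate 3, with scores there of 27.02 near the start of Syn3, 23.27 near Aqp9, 32.88 near Zc3h12c, 33.63 in an intron of Hs1bp3 and 19.72 near 1810062G17Rik. All but the site at Syn3, 3 bp from a transcription start, held the motif. The lowest scores, 4.12 at the starts of Bms1 and Tgfb1i1 with no replicate and 4.16 in Mctp1 and near Abhd16b with 1, also came with a match at each site. In replicate 3 the peaks in Mctp1 and near Abhd16b scored 8 and 10.39. The widest site with no replicate, 477 bp in an intron of Gm20388, and the widest with 1, 1226 bp in the 3′ untranslated exon of Swap70, a signalling protein of activated B cells, had none. At promoters, the highest scores with no replicate were 20.32 at 2900010M23Rik, 19.69 at Ephb3 and 18.5 at Lsm11, whose match of 25.4 log2 odds was the best of these 3. With 1 replicate they were 38.26 at Syn3, 24.59 at Col27a1 and 23.34 at Atxn3, with 27.02, 20.22 and 18.8 in replicate 3.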

How the data were processed

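RAD21 ChIP-seq was done in 3 replicates at each of 0 h, 48 h and 96 h. The authors aligned reads to mm9 with Bowtie 2, sampled the same number of unique positions for each set, merged replicates into pooled samples and ran MACS 2 with input as control at a false discovery rate of 0.05. The deposited lists, 12 in number, give a start, an end and a score for each peak, and the score's statistic is not named in the sources used here. The 9 input libraries were not used on their own. Scores were compared only within a list.

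The 5789 sites and the gene lists were chosen with earlier results of these data known. Gene features were taken from GENCODE M1 on NCBIM37 (mm9), by the centre of a site. 2 symbols were matched through older names of the RefSeq table. The motif was learned from sites on even-numbered autosomes, starting from the most enriched word of 8 bases (AGAGGGCA), and a match was a score passed by 5% of windows 1000 bp away. Intervals are Clopper-Pearson for shares and Newcombe for differences, at 95%. The only tests were 2 exact paired permutation tests over the 96 h replicates, with Benjamini-Hochberg adjustment.

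Sites named are, in each group, the 5 highest and 2 lowest scores, the widest, the 3 highest scores within 1 kb upstream of a transcription start, and up to 4 sites a list in or within 10 kb of a listed gene, highest scores first. The further sites named for these lists, the sites just inside and outside the limit, the genes with most sites and the recurring sequences were chosen after their values had been seen. Alternatives were another overlap, merging distance, score minimum, equal list length, motif window and level, feature assignment and leaving out each replicate. The overlap classes, the motif search and the repeat search were tested on simulated data. Python 3.11.15, numpy 2.4.6, scipy 1.17.1 and matplotlib 3.10.9 were used.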

Additional observations from a re-analysis of the deposited data

How the results depend on the processing

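Fewer sites were left when the pooled lists were shortened. Most of the sites lay below the median score of the 96 h list, so a cut there removes them by construction. With 96 h pooled peaks limited to those at or above the median score, 121 sites had no replicate and 939 had 1, with the motif at 96.9% and 95.7%, and 6.92% of the sites with 1 replicate lay within 3 kb upstream of a start. With pooled lists of equal length, 48 and 630 sites were left, 95.8% and 96.6% with the motif and 10.4% and 6.83% within 3 kb upstream. A motif window of 50 bp gave 76.2% with no replicate and 85.5% with 1, and the level passed by 1% of windows away gave 58.6% and 59.6%.

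Leaving out 1 of the 96 h replicates in turn gave 3056 to 5323 sites with no replicate and 1371 to 3277 with 1. Replicate 3 decided these numbers, since 5323 and 1371 were the counts without it. The motif share ranged from 90.4% to 92.3% with no replicate and from 94.8% to 95.4% with 1, and the share within 3 kb upstream from 8.18% to 8.40% and from 8.78% to 9.92%. The mean paired difference in the motif ranged from -1.89 to 0.125 points and that within 3 kb upstream from -0.381 to 1.32, both turning sign without replicate 1, where each rested on 2 replicates. Of all values recomputed, 33 moved by less than the limits set for them, 19 moved by more and 2 turned sign. Between time points, no paired analysis was possible because no test compared them. The 2 paired tests were made within the 96 h samples. The peak lists hold no reads, so the number of reads at a site with a missing peak is unknown.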
